A study of Bos taurus with 2 samples.

Results

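Integrins and laminins were followed in RNA sequencing libraries of bovine seminiferous tubules, the part of the testis that makes sperm. The genes were taken by symbol, as the integrin alpha (ITGA) and beta (ITGB) subunits and the laminin alpha (LAMA), beta (LAMB) and gamma (LAMC) chains. Described here are 35 of the 24616 listed genes, of which 24 were integrin subunits and 11 were laminin chain entries under 10 symbols, because LAMC1 stood under 2 Ensembl IDs. ITGB3, ITGAX and LAMB2 are not analysed here. The groups were a 9-month calf and a 3-month calf, each with 1 library from frozen pieces of tubule. Breed, genotype and any treatment of the calves are not stated.

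Laminins are large cross-shaped proteins of the basement membrane, each built from an alpha, a beta and a gamma chain, and they form the sheet on which Sertoli cells and spermatogonia rest. Integrins are cell surface receptors made of an alpha and a beta subunit, which bind laminins, collagens, fibronectin or proteins of other cells and link them to the actin skeleton inside. In the rodent testis laminin chains and integrins are also known from the junction between Sertoli cells and elongating spermatids, where no basement membrane lies.

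Sequencing depth was 29782234 counts for the 9-month calf and 37600534 for the 3-month calf. With 1 library per age there is no replicate check and no test, so each value compares these 2 libraries and not the ages in general. Levels are given as scaled RPKM, the counts per kilobase of gene length and per 1000000 counts of the library size after TMM scaling (trimmed mean of M values), so that genes and libraries can be set side by side. All 35 members reached the minimum of 10 counts, summed over both libraries, that made a gene count as measured. A gene was called higher or lower when its ratio of scaled counts, 9-month to 3-month, was at least 2-fold and the 95% exact interval of the ratio, given in brackets, excluded 1. The interval covers counting error only. Sertoli markers (SOX9, AMH, FSHR, GATA4, WT1, DHH, CLDN11 and INHA) were all present, with summed levels of 474.2 scaled RPKM in the 9-month calf and 2897 in the 3-month calf. Leydig cells lie outside the tubules, yet 5 of their markers summed to 2955 scaled RPKM in the 9-month calf and 13170 in the 3-month calf. All 5 were lower in the 9-month calf, where 22.8% of all measured genes were lower. The summed level of all listed genes was 566670 scaled RPKM in the 9-month calf and 1.151e+06 in the 3-month calf. It was thus 2.03-fold lower itself, and summed levels of markers are to be read beside that. Spermatid markers (PRM1, PRM2, TNP1, TNP2, ACR, ODF1 and ACRV1) summed to 5102 scaled RPKM in the 9-month calf and 1.61 in the 3-month calf, where ODF1 was at 0.

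Most of the abundant laminin and integrin genes were lower in the 9-month calf, while a few members that were scarce in the 3-month calf were higher. Of the 35 members 15 were lower, 5 were higher and 15 were not called. Lower members were 42.9% of those described, against 22.8% of all measured genes, and higher members were 14.3%, against 28.0% of all measured genes. The median log2 ratio was -0.47 over the integrin subunits and -1.25 over the laminin entries, beside 0.02 over all 18025 measured genes. With plain library totals the median of all measured genes moved up by 0.44. The integrin and laminin medians relative to it were -0.48 and -1.26, against -0.49 and -1.28 with TMM. These relative values could hardly differ, because a change of scaling moves every ratio by the same factor. Of the 8 Sertoli markers 5 were lower and 1 was higher. Among the called laminins and integrins most were lower too, and the part of Sertoli cells in these values was not tested. In bulk tissue a lower level can come from fewer cells of a type or from less RNA per cell, and these cannot be told apart here. Integrin genes together took 0.108% of all counts in the 9-month calf [0.106 to 0.109] and 0.226% in the 3-month calf [0.225 to 0.228]. Laminin genes took 0.0882% [0.0872 to 0.0893] in the 9-month calf and 0.188% [0.187 to 0.19] in the 3-month calf.

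**Figure D1:**
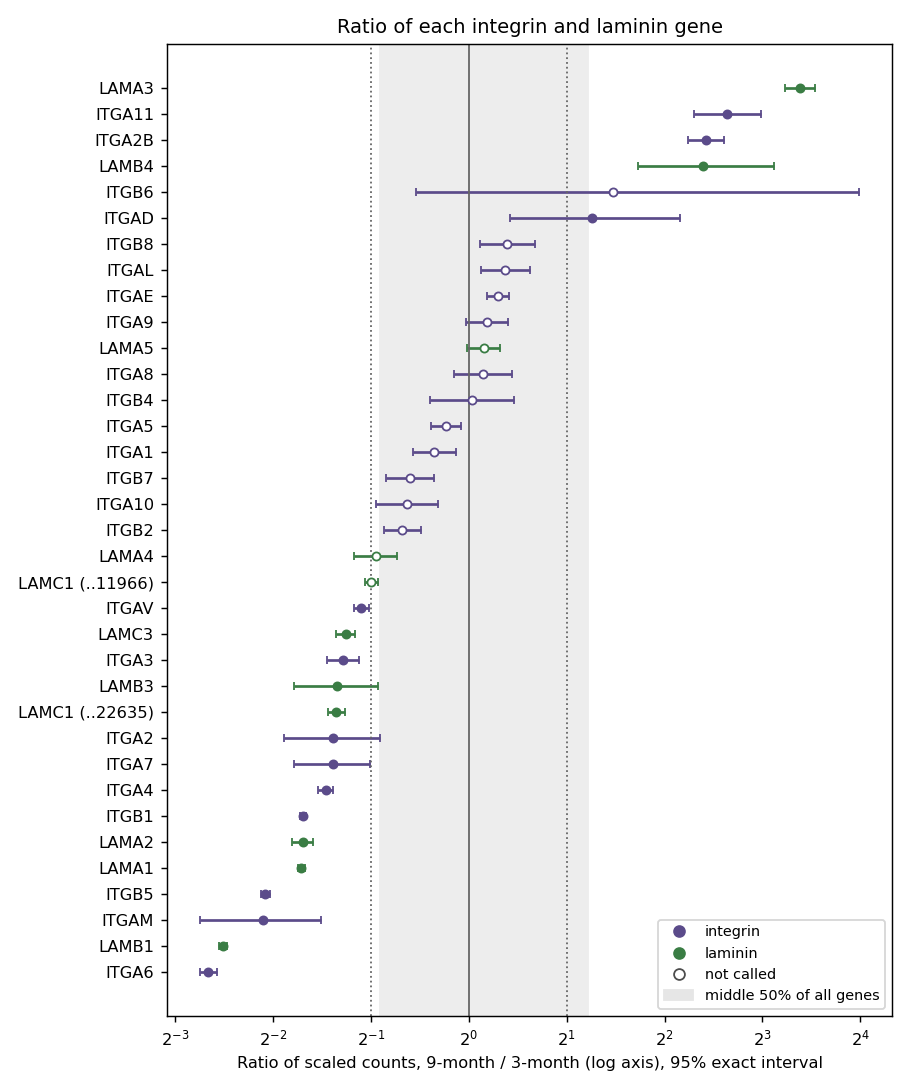
Ratio of scaled counts, 9-month to 3-month calf, for the 35 integrin and laminin genes on a log axis, with 95% exact counting intervals (bars); filled points were called, open points were not, dotted lines mark 2-fold and the grey band holds the middle 50% of all measured genes. LAMA3 stands at the top with 10.4-fold and ITGA6 at the bottom, 6.32-fold lower in the 9-month calf.

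Among the laminin alpha chains, which carry the sites that integrins bind, LAMA3 and LAMA1 went opposite ways. LAMA3 (ENSBTAG00000027181), known from epidermal basement membrane and, in rodents, from the Sertoli cell and spermatid junction, had 4468 counts and a level of 12.9 scaled RPKM in the 9-month calf, against 396 counts and 1.24 scaled RPKM in the 3-month calf. This was a 10.4-fold higher level [9.39 to 11.6], the highest ratio of the 35 members. LAMA1 (ENSBTAG00000018160), the alpha chain of the prototype laminin of embryonic basement membranes, had 8832 counts and 27.3 scaled RPKM in the 9-month calf, against 26647 counts and 89.2 scaled RPKM in the 3-month calf. It was 3.27-fold lower [3.19 to 3.35], and it was still the most abundant alpha chain in the 9-month calf. The gap between these chains was therefore much narrower in the older calf: per kilobase there were 2.11 LAMA1 counts for each LAMA3 count in the 9-month calf [2.03 to 2.19] and 71.8 in the 3-month calf [65.0 to 79.5]. A ratio of genes within a library does not depend on how the libraries are scaled. Markers of spermatids and spermatocytes lay on the same side as LAMA3, and their part in its level was not tested. Spermatid markers were higher in 7 of 7 cases, where 28.0% of all measured genes were higher and 22.8% lower. Spermatocyte markers were higher in 5 of 5, with summed levels of 298.3 scaled RPKM in the 9-month calf and 14.7 in the 3-month calf and none at 0. Markers of rete testis and duct epithelium summed to 68.6 scaled RPKM in the 9-month calf and 6.79 in the 3-month calf, with none of the 4 at 0. EPCAM alone held 67.0 scaled RPKM of this sum in the 9-month calf and 1.39 in the 3-month calf. It was 48.2-fold higher [38.1 to 62.0], while KRT7 and PAX8 were lower and KRT19 was not called. The difference in the sum is therefore that of EPCAM and not of the other markers.

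LAMA2 (ENSBTAG00000010229), the chain of muscle and peripheral nerve basement membranes, followed LAMA1, with 968 counts and 2.93 scaled RPKM in the 9-month calf and 2895 counts and 9.51 scaled RPKM in the 3-month calf, 3.24-fold lower [3.01 to 3.49]. The LAMA1 to LAMA2 ratio per kilobase was nearly the same in each library, 9.29 in the 9-month calf [8.70 to 9.94] and 9.38 in the 3-month calf [9.02 to 9.75]. LAMA4, a chain of blood vessel basement membranes, stood at 1.29 scaled RPKM in the 9-month calf and 2.5 in the 3-month calf, a 1.93-fold lower value [1.66 to 2.26] just short of a call, and it was called lower with upper-quartile scaling. Endothelial markers lay on the same side, with 6 of 7 lower, where 22.8% of all measured genes were lower. The markers summed to 25.2 scaled RPKM in the 9-month calf and 57.1 in the 3-month calf. This was 2.26-fold lower, close to the 2.03-fold of all listed genes summed. With plain library totals 3 of these markers were lower, where 14.7% of all measured genes were lower. None of the 7 markers was at 0, VWF was the one that was higher, and their part in the LAMA4 value was not tested. LAMA5, a chain found in many adult basement membranes, had nearly the same level in each library, 1.56 scaled RPKM in the 9-month calf and 1.40 in the 3-month calf, and its ratio of 1.11 [0.987 to 1.25] was not called.

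**Figure D2:**
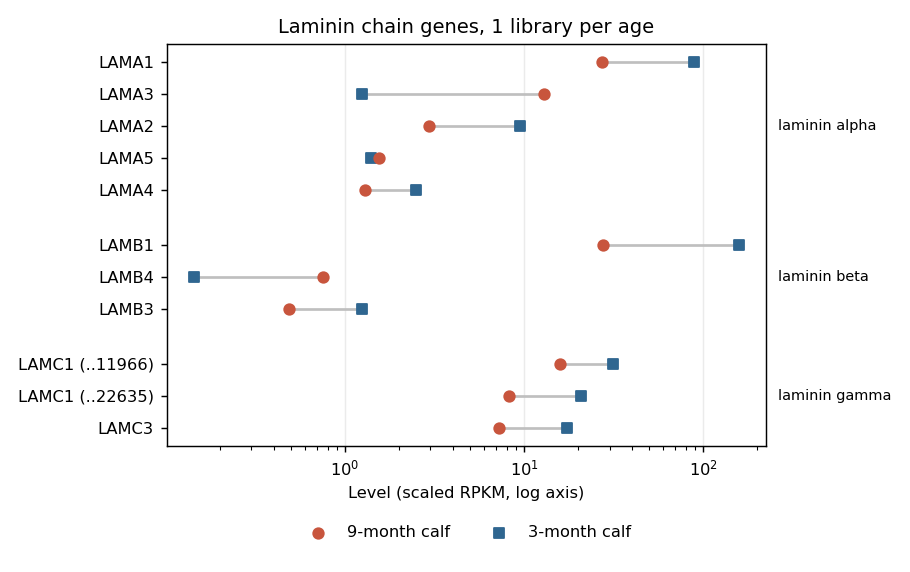
Level of each laminin chain gene in scaled RPKM on a log axis, in the 9-month calf (circles) and the 3-month calf (squares), 1 library per age, ordered by chain class; the 2 rows of LAMC1 are its 2 Ensembl IDs. LAMA3 and LAMB4 lie further right in the 9-month calf, and LAMA1, LAMB1 and LAMC3 further left.

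Among the laminin beta chains analysed here, which do not include LAMB2, LAMB1 was dominant. LAMB1 (ENSBTAG00000011412), the usual partner of LAMA1, had 5362 counts and 27.7 scaled RPKM in the 9-month calf, against 28153 counts and 157 scaled RPKM in the 3-month calf, and was 5.69-fold lower [5.53 to 5.86], the largest difference downwards among the laminins. It nevertheless made up 95.7% of the summed level of LAMB1, LAMB3 and LAMB4 in the 9-month calf [95.1 to 96.3]. In the 3-month calf this share was 99.1% [99.0 to 99.3]. Because LAMB1 differed more than LAMA1, both stood at about the same level per kilobase in the older calf: the LAMB1 to LAMA1 ratio was 1.01 in the 9-month calf [0.98 to 1.05] and 1.76 in the 3-month calf [1.74 to 1.79]. LAMB3, which joins LAMA3 in the anchoring laminin of the epidermis, was scarce and lower, with 67 counts and 0.488 scaled RPKM in the 9-month calf and 157 counts and 1.24 scaled RPKM in the 3-month calf, 2.54-fold lower [1.90 to 3.43]. LAMB4 was scarcer still in the 3-month calf and higher in the 9-month calf, with 125 counts and 0.753 scaled RPKM in the 9-month calf and 22 counts and 0.144 scaled RPKM in the 3-month calf, 5.24-fold higher [3.31 to 8.67].

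Of the gamma chains, LAMC1, the most widespread in basement membranes, was split over 2 Ensembl IDs in the tables, and RefSeq assembly ARS-UCD2.0 lists a single LAMC1 gene. The entry ENSBTAG00000011966 had 2775 counts and 15.8 scaled RPKM in the 9-month calf and 5096 counts and 31.5 scaled RPKM in the 3-month calf. At 1.99-fold lower [1.90 to 2.09] it fell just short of a call, and it was called with upper-quartile scaling. The entry ENSBTAG00000022635 had 1594 counts and 8.20 scaled RPKM in the 9-month calf and 3751 counts and 20.9 scaled RPKM in the 3-month calf, 2.55-fold lower [2.4 to 2.71]. The sources used here do not say how reads were divided between these entries, so each value alone is uncertain. Their summed counts were 4369 in the 9-month calf and 8847 in the 3-month calf, 2.19-fold lower [2.12 to 2.28]. LAMC3 (ENSBTAG00000017473), a gamma chain that in rodents has been placed at the Sertoli cell and spermatid junction, had 1202 counts and 7.26 scaled RPKM in the 9-month calf and 2647 counts and 17.3 scaled RPKM in the 3-month calf, 2.39-fold lower [2.23 to 2.56].

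LAMB3 and LAMC3, both known from tissues with LAMA3, were lower where LAMA3 was higher. LAMA3 and LAMB3 stood at equal levels in the 3-month calf, while LAMA3 was far above LAMB3 in the 9-month calf: the LAMA3 to LAMB3 ratio per kilobase was 26.5 in the 9-month calf [20.8 to 34.3] and 1.00 in the 3-month calf [0.832 to 1.21]. LAMA3 was 1.78 times LAMC3 in the 9-month calf [1.67 to 1.90], against 0.0717 times in the 3-month calf [0.0644 to 0.0798]. The ratio of LAMC3 to LAMB3 was alike in each library, 14.9 in the 9-month calf [11.6 to 19.3] and 14.0 in the 3-month calf [11.9 to 16.5].

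Integrin alpha subunits are grouped here by what their receptors bind. All 3 laminin-binding subunits were lower in the 9-month calf, and their summed level was 12.2 scaled RPKM there, against 64.9 in the 3-month calf. ITGA6 (ENSBTAG00000017266), a laminin receptor that also marks spermatogonial stem cells in mouse, had 1274 counts and 9.04 scaled RPKM in the 9-month calf and 7429 counts and 57.1 scaled RPKM in the 3-month calf. It was 6.32-fold lower [5.95 to 6.71], the largest difference downwards of all 35 members. It made up 9.44% of the alpha subunit level in the 9-month calf [8.95 to 9.95] and 30.6% in the 3-month calf [30.0 to 31.2], where it was the most abundant alpha subunit. Of 5 markers of undifferentiated spermatogonia 2 were higher, 1 was lower and none was at 0, where 28.0% of all measured genes were higher and 22.8% lower. These markers summed to 56.1 scaled RPKM in the 9-month calf and 42.8 in the 3-month calf. With plain library totals 4 were higher and 0 lower, where 36.2% of all measured genes were higher. The part of spermatogonia in the ITGA6 value was not tested. ITGA3, a laminin receptor of epithelia, was 2.43-fold lower [2.17 to 2.72], at 2.55 scaled RPKM in the 9-month calf and 6.19 in the 3-month calf. ITGA7, the laminin receptor of muscle, was 2.62-fold lower [2.01 to 3.45], at 0.605 scaled RPKM in the 9-month calf and 1.59 in the 3-month calf. Contractile markers of myoid cells and smooth muscle, another source of ITGA7 in other tissues, had none of 6 at 0. Of these 2 were higher and 2 lower, where 28.0% of all measured genes were higher and 22.8% lower. The markers summed to 269.9 scaled RPKM in the 9-month calf and 178.3 in the 3-month calf. Scaled by plain totals, 3 were higher and 0 lower, where 36.2% of all measured genes were higher and 14.7% lower. The part of these cells in the ITGA7 value was not tested.

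**Figure D3:**
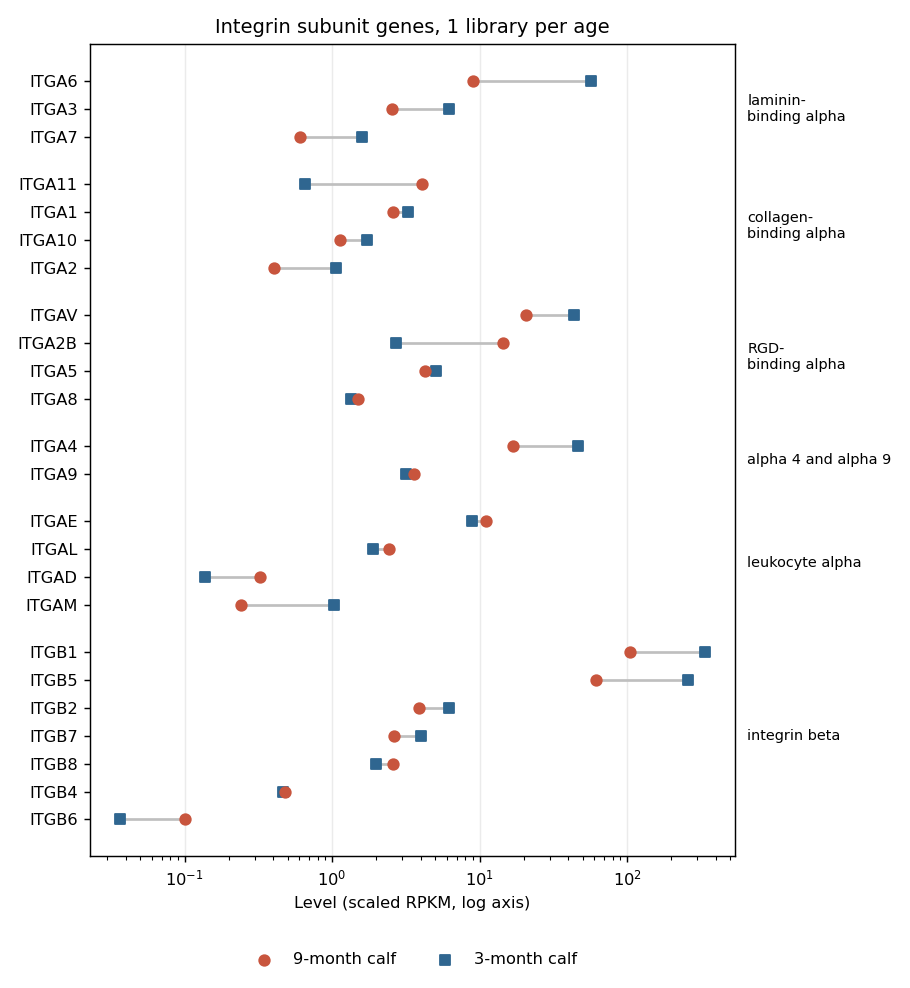
Level of each integrin subunit gene in scaled RPKM on a log axis, in the 9-month calf (circles) and the 3-month calf (squares), 1 library per age, grouped by what the alpha subunits bind and with the beta subunits last. ITGB1 and ITGB5 have the highest levels in each library, and ITGA11, ITGA2B and ITGAD lie further right in the 9-month calf.

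The collagen-binding subunits had members on each side. ITGA11 (ENSBTAG00000008380), a receptor for fibrillar collagen on fibroblasts, had 553 counts and 4.05 scaled RPKM in the 9-month calf and 82 counts and 0.651 scaled RPKM in the 3-month calf, 6.22-fold higher [4.93 to 7.95]. The fibroblast markers LUM, DCN, PDGFRA, COL1A1 and COL3A1 were not higher in any case, with none at 0. Of these 5, LUM and DCN were lower, where 22.8% of all measured genes were lower and 28.0% higher. The markers summed to 209.9 scaled RPKM in the 9-month calf and 1124 in the 3-month calf. Most of that difference lay in DCN, at 44.3 and 652, and LUM, at 2.33 and 186 in the same order. The part of fibroblasts in the ITGA11 value was not tested. ITGA2, a collagen receptor also known from platelets, was 2.61-fold lower [1.87 to 3.70] on 51 counts in the 9-month calf and 123 in the 3-month calf. ITGA2 overlaps MOCS2 in ARS-UCD2.0, and MOCS2 had a log2 ratio of -1.98, so reads of these genes may not be fully separate. ITGA1, the neighbour of ITGA2 in that assembly and a receptor for basement membrane collagen, was 1.27-fold lower [1.10 to 1.48], and ITGA10, a collagen receptor of cartilage, was 1.54-fold lower [1.24 to 1.92]. Neither reached the call, and with plain library totals the log2 ratio of ITGA1 was 0.10, on the other side. ITGA1 overlaps PELO in ARS-UCD2.0, which had 1532 counts in the 9-month calf and 1044 in the 3-month calf, against 324 and 381 for ITGA1, so its value is uncertain too. With ITGA11 among them, the 4 collagen-binding subunits summed to 8.17 scaled RPKM in the 9-month calf and 6.75 in the 3-month calf.

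Of the subunits that recognise the RGD motif of matrix proteins, ITGA2B was higher and ITGAV lower. ITGA2B (ENSBTAG00000008165), which forms the fibrinogen receptor of platelets, had 1710 counts and 14.5 scaled RPKM in the 9-month calf and 294 counts and 2.70 scaled RPKM in the 3-month calf, 5.37-fold higher [4.74 to 6.09]. It took 15.1% of the alpha subunit level in the 9-month calf [14.5 to 15.8] and 1.45% in the 3-month calf [1.29 to 1.62]. The other platelet genes PF4, PPBP, GP9, GP1BA, GP6 and GP1BB were near or at 0 in each library. Together they had 8 counts in the 9-month calf, of which 7 were GP1BA, and 5 in the 3-month calf. PPBP and GP6 had none in either. The part of platelets in the ITGA2B value was not tested. ITGAV (ENSBTAG00000019929), a receptor of vitronectin and of latent TGF-beta, had 2257 counts and 20.6 scaled RPKM in the 9-month calf and 4447 counts and 44 scaled RPKM in the 3-month calf, 2.14-fold lower [2.03 to 2.25]. ITGA5, the main fibronectin receptor, was not called, with 4.29 scaled RPKM in the 9-month calf and 5.05 in the 3-month calf, and its log2 ratio of -0.23 was 0.22 with plain library totals. ITGA8, a receptor of nephronectin, had 1.5 scaled RPKM in the 9-month calf and 1.35 in the 3-month calf, and the interval of its ratio included 1.

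ITGA4 (ENSBTAG00000009256), which binds VCAM1 and fibronectin and is best known from leukocytes, had 2054 counts and 16.9 scaled RPKM in the 9-month calf and 5220 counts and 46.7 scaled RPKM in the 3-month calf, 2.75-fold lower [2.62 to 2.90]. Its relative ITGA9 was at 3.59 scaled RPKM in the 9-month calf and 3.15 in the 3-month calf and was not called. The pan-leukocyte marker PTPRC was at 8.96 scaled RPKM in the 9-month calf and 9.83 in the 3-month calf, so ITGA4 was more abundant than PTPRC in each. Of 11 leukocyte and macrophage markers none was at 0, 4 were lower and 1 was higher, where 22.8% of all measured genes were lower and 28.0% higher. The markers summed to 208.1 scaled RPKM in the 9-month calf and 404.5 in the 3-month calf. This was 1.94-fold lower, no more than the 2.03-fold of all listed genes summed. The part of leukocytes in the ITGA4 value was not tested. The number of lower markers was 2 with plain library totals, where 14.7% of all measured genes were lower, and 5 with upper-quartile scaling. ITGA4 overlaps CERKL in ARS-UCD2.0, which had 143 counts in the 9-month calf and 71 in the 3-month calf.

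The alpha subunits of leukocytes did not move together. ITGAM, of macrophages and neutrophils, was 4.30-fold lower [2.84 to 6.70] on 29 counts in the 9-month calf and 115 in the 3-month calf. ITGAD, a close relative of ITGAM, was 2.39-fold higher [1.34 to 4.46] on 44 counts in the 9-month calf and 17 in the 3-month calf. ITGAL, which binds ICAM1 on other cells, had 2.44 scaled RPKM in the 9-month calf and 1.89 in the 3-month calf and was not called. ITGAE, which binds E-cadherin on epithelia, was the most abundant of the group, with 1440 counts and 11 scaled RPKM in the 9-month calf and 1079 counts and 8.95 scaled RPKM in the 3-month calf, and its ratio of 1.23 [1.14 to 1.33] was not called. In ARS-UCD2.0 ITGAE overlaps the protein kinase gene HASPIN, listed in the tables as GSG2, which had 7200 counts in the 9-month calf and 169 in the 3-month calf, and whether any of its reads were counted for ITGAE was not tested.

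The integrin beta subunits analysed here, which do not include ITGB3, held none that was higher. ITGB1 (ENSBTAG00000015910), the partner of all laminin-binding and collagen-binding alpha subunits, was the most abundant member in each library, with 13428 counts and 105 scaled RPKM in the 9-month calf and 40072 counts and 339 scaled RPKM in the 3-month calf, 3.23-fold lower [3.17 to 3.30]. Its level was above that of 95.5% of measured genes in the 9-month calf and of 97.9% in the 3-month calf. ITGB5 (ENSBTAG00000013755), which pairs with ITGAV, had 5630 counts and 61.1 scaled RPKM in the 9-month calf and 21886 counts and 258 scaled RPKM in the 3-month calf, 4.21-fold lower [4.09 to 4.34]. Together ITGB1 and ITGB5 made up 94.5% of the level of the analysed beta subunits in the 9-month calf and 97.9% in the 3-month calf.

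The other 5 beta subunits were not called. ITGB2, the partner of ITGAL, ITGAM and ITGAD on leukocytes, was 1.60-fold lower [1.40 to 1.83], at 3.91 scaled RPKM in the 9-month calf and 6.25 in the 3-month calf. ITGB7, the partner of ITGAE, was 1.51-fold lower [1.28 to 1.79], at 2.65 and 4.0 scaled RPKM in the 9-month and the 3-month calf. ITGB8, which with ITGAV releases active TGF-beta, was at 2.61 scaled RPKM in the 9-month calf and 1.98 in the 3-month calf, a ratio of 1.32 [1.08 to 1.60]. ITGB4, which pairs with ITGA6 alone in the hemidesmosomes of epithelia, was scarce in each library, at 0.480 scaled RPKM in the 9-month calf and 0.467 in the 3-month calf. ITGB6, an epithelial subunit, had 9 counts in the 9-month calf and 3 in the 3-month calf, a ratio of 2.77 whose interval of 0.691 to 15.9 included 1, so no difference was detectable at this depth.

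Subunits were also set against their partners within each calf. The summed level of the analysed beta subunits was 1.83 times that of the analysed alpha subunits in the 9-month calf and 3.27 times in the 3-month calf. The gap was wider for ITGB1, which was 11.6 times ITGA6 in the 9-month calf [10.9 to 12.3] and 5.93 times in the 3-month calf [5.79 to 6.08]. It was narrower for ITGB5, which was 2.97 times ITGAV in the 9-month calf [2.83 to 3.12] and 5.86 times in the 3-month calf [5.67 to 6.05]. The order of alpha subunits also differed. In the 9-month calf ITGAV, ITGA4 and ITGA2B stood first and ITGA6 came after ITGAE, while in the 3-month calf ITGA6, ITGA4 and ITGAV stood first. ITGA2B was 1.60 times ITGA6 in the 9-month calf [1.49 to 1.73] and 0.0473 times in the 3-month calf [0.0419 to 0.0531]. ITGA6, ITGA4 and ITGAV made up 48.6% of the alpha subunit level in the 9-month calf and 79.2% in the 3-month calf.

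**Figure D4:**
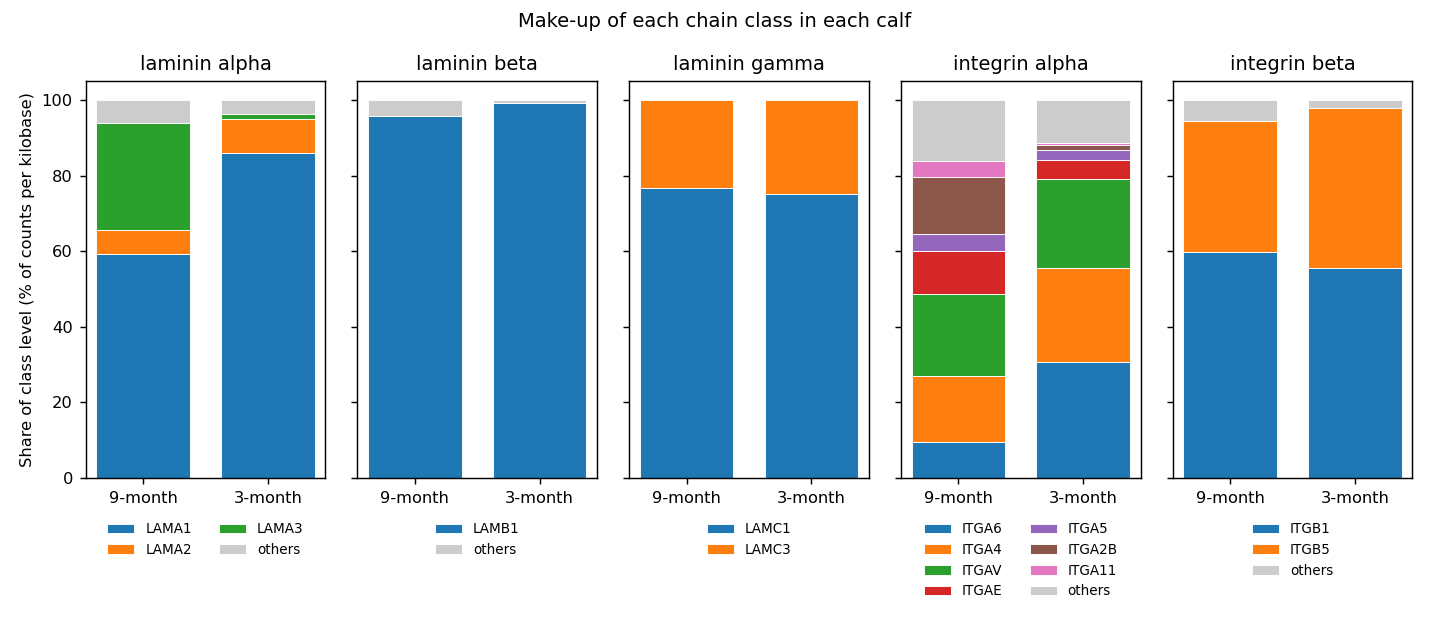
Share of each chain in the summed level (counts per kilobase) of the analysed genes of its class, in the 9-month calf (left bar) and the 3-month calf (right bar) of each panel. Chains under 4% in each library are pooled as others, and the 2 LAMC1 entries are added. ITGB3, ITGAX and LAMB2 are not included. LAMA3 takes 28.1% of the laminin alpha level in the 9-month calf and 1.20% in the 3-month calf, and ITGA6 takes 9.44% and 30.6% of the integrin alpha level in the same order.

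The make-up of each chain class among the analysed genes, which does not depend on the scaling between libraries, was also compared. LAMA3 took 28.1% of the laminin alpha level in the 9-month calf [27.4 to 28.8] and 1.20% in the 3-month calf [1.08 to 1.32]. LAMA1 took 59.3% in the 9-month calf [58.5 to 60.1] and 85.9% in the 3-month calf [85.5 to 86.3], so that LAMA1 and LAMA3 together held 87.4% and 87.1%. The gamma class kept its make-up, with the LAMC1 entries at 76.8% of the level of LAMC1 and LAMC3 in the 9-month calf and 75.2% in the 3-month calf, and LAMC3 at 23.2% [22.1 to 24.4] and 24.8% [24.0 to 25.7].

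Genes that bind laminins or share the basement membrane with them were mostly lower. Of 30 such genes 23 were lower, 4 were higher and 3 were not called, with a median log2 ratio of -1.70. Lower genes were 76.7%, against 22.8% of all measured genes, and higher genes 13.3%, against 28.0%. The lowest ratios among those of some abundance were of collagen IV chains, which form the network to which laminin is tied. COL4A1 was at 36.3 scaled RPKM in the 9-month calf and 371.8 in the 3-month calf, 10.2-fold lower. COL4A6 was 8.30-fold lower [7.68 to 8.98] and COL4A5 6.82-fold lower [6.58 to 7.06]. FRAS1, a protein of embryonic basement membranes, went the other way and was 12.3-fold higher [8.42 to 18.6], and SDC4, a syndecan of focal adhesions, was 2.37-fold higher [2.07 to 2.73]. SMOC2, a SPARC-related matrix protein, was at 8.75 scaled RPKM in the 9-month calf and 5.0 in the 3-month calf and was not called. Laminin receptors outside the integrin family, named here after their values were seen, lay on both sides. SDC1, a syndecan of epithelia that binds laminin, was higher like SDC4, with 148 counts in the 9-month calf and 41 in the 3-month calf, 3.33-fold [2.34 to 4.83]. BCAM, which binds LAMA5, was 3.79-fold lower [3.70 to 3.88], and DAG1, which encodes dystroglycan, 3.19-fold lower [3.05 to 3.33]. CD151, a tetraspanin that binds laminin-binding integrins, was 3.14-fold lower [3.04 to 3.24].

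The adaptor genes inside the cell were closer to level than the basement membrane genes. Of 30 focal adhesion genes 10 were lower, 2 were higher and 18 were not called. Lower genes were 33.3%, against 22.8% of all measured genes, and higher genes 6.67%, against 28.0%. With plain library totals 5 of the 30 were lower, close to the 14.7% of all measured genes, and 3 were higher, against 36.2%. The median log2 ratio of the focal adhesion genes, -0.48 with TMM, was close to the -0.47 of the integrin subunits. FERMT1, the kindlin of epithelia that activates integrins, was 7.88-fold lower [6.55 to 9.53], at 1.10 scaled RPKM in the 9-month calf and 8.64 in the 3-month calf. PARVA and RSU1, both of the complex around integrin-linked kinase, were 4.51-fold [3.82 to 5.35] and 3.27-fold [3.07 to 3.49] lower. LIMS2, another member of that complex, was 4.74-fold higher [3.97 to 5.69], at 12.2 scaled RPKM in the 9-month calf and 2.57 in the 3-month calf. SHARPIN, which holds integrins inactive, was 3.49-fold higher [3.08 to 3.97]. ITGB1BP1, which competes with talin for the ITGB1 tail, was at 36.1 scaled RPKM in the 9-month calf and 18.9 in the 3-month calf and was not called.

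Other integrin ligands also had more lower than higher members. Of 20 measured entries, in which VCAM1 stood under 2 Ensembl IDs, 9 were lower, 4 were higher and 7 were not called. Lower entries were 45%, against 22.8% of all measured genes. Higher entries were 20%, below the 28.0% of all measured genes. The median log2 ratio was -0.71. SPP1, the RGD protein osteopontin, had 10 counts in the 9-month calf and 737 in the 3-month calf, 79.9-fold lower [43.2 to 167]. VCAM1, the ligand of ITGA4, was 9.21-fold lower [8.37 to 10.1] under ENSBTAG00000037539 and 4.87-fold lower [4.42 to 5.37] under ENSBTAG00000007773. EMILIN1, an elastic fibre protein, was 8.46-fold lower [7.83 to 9.16]. TGFB1, FGB and THBS1 had the highest ratios among the more abundant ligands, between 1.30 and 1.40, and none of them was called. The 4 higher genes were scarce and are named after their values were seen. They were VTN with 58 counts in the 9-month calf and 3 in the 3-month calf, FGA with 26 and 0, MADCAM1 with 48 and 9, and EDIL3 with 100 and 28 in the same order.

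**Figure D5:**
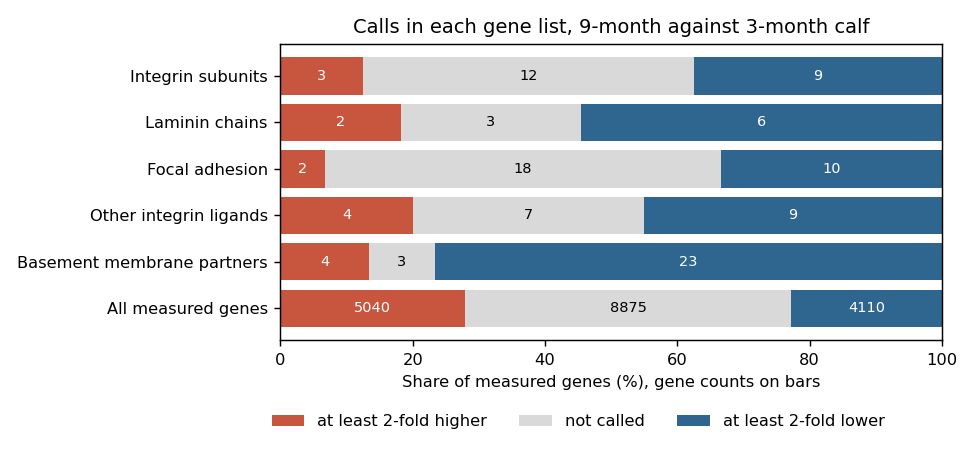
Share of measured genes at least 2-fold higher, not called or at least 2-fold lower in the 9-month calf against the 3-month calf, for each gene list with all measured genes last; the numbers on the bars are gene counts. Lower genes make up 76.7% of the basement membrane partners, 54.5% of the laminin entries and 37.5% of the integrin subunits, beside 22.8% of all measured genes.

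A larger threshold and another scaling left fewer members. At 4-fold, 4 laminin or integrin members were lower and 4 were higher, where 8.59% of all measured genes were lower and 17.6% higher. With plain library totals 8 members were lower at 2-fold and 5 were higher, where 14.7% of all measured genes were lower and 36.2% higher. The 7 members that were lower with TMM and no longer called with plain totals were ITGAV, ITGA2, ITGA3, ITGA7, LAMB3, LAMC3 and the LAMC1 entry ENSBTAG00000022635. LAMA1, LAMA2, LAMB1, ITGA4, ITGA6, ITGAM, ITGB1 and ITGB5 were called lower under each of the 4 scalings, and LAMA3, LAMB4, ITGA2B, ITGA11 and ITGAD were called higher under each.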

How the data were processed

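RNA was measured in 1 library per age, 9 months and 3 months. Trimmomatic 0.33, STAR 2.4.0 and the genome build UMD3.1 are named, per the submitters' processing notes. The counting program, annotation release, strand setting and treatment of reads with several alignments are not stated there. The tables have no header, so units were read from the values. The authors deposited raw counts per Ensembl gene, the gene length in bases, and RPKM relative to the total of each table, which matched the quotient recomputed from the counts with a largest difference of 0.000496%. No columns of other samples were present.

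Raw counts were scaled by TMM in edgeR 4.0.16 (R 4.3.3), with factors from genes of at least 10 counts over both libraries, which were 1.17 for the 9-month and 0.855 for the 3-month library. Log2 ratios carry a prior count of 2. Ratios carry 95% exact conditional binomial intervals, which cover counting error only, since reads without molecular identifiers need not be independent molecules. Intervals of shares within a class rest on exact binomial intervals of counts, with the lengths of the other chains held. Scripts were tested on simulated data. With 1 library per age no test or p-value is given. Alternatives were plain library totals, upper-quartile scaling, DESeq2 1.42.0 size factors, minimums of 1 and 50 counts, a prior count of 10, calls at 1.5-fold and 4-fold, and shares of raw counts. Intervals were computed with scipy 1.17.1 and tables with pandas 2.3.3 in Python 3.11.15.

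All members may be named. Of the genes that met the rule and the marker lists, 2 are not reported here and were left out of the counts, sums and shares of members and lists. Of the lists of focal adhesion genes, other integrin ligands and basement membrane partners, up to 3 genes with the highest and 3 with the lowest log2 ratio were named among those of at least 5 CPM (TMM-scaled) in the higher library. Members and lists were chosen with earlier results of these data known. Overlaps and neighbours come from RefSeq (ARS-UCD2.0), whose coordinates are not printed because the build differs.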

Additional observations from a re-analysis of the deposited data

How the results depend on the processing

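With plain library totals 5 integrin subunits and 3 laminin entries were lower, against 9 and 6 with TMM, and the medians were -0.0201 for integrins and -0.80 for laminins. The focal adhesion list then had 5 lower genes of 30, against 10. Of all measured genes 14.7% were lower and 36.2% higher with plain totals, against 22.8% and 28.0% with TMM. With upper-quartile scaling the medians were -0.57 and -1.36. A minimum of 50 counts gave an integrin median of -0.59. At 4-fold 3 integrin subunits and 1 laminin entry were lower. Counts of higher members stayed within 1.5 times under all these settings. No called member changed direction under the 3 other scalings, but this was fixed in advance. A change of scaling moves all ratios by the same factor, here under 2-fold, while a call needs at least 2-fold. Among the marker lists, lower calls with plain totals were 3 of endothelial cells (6 with TMM), 2 of leukocytes (4), 0 of myoid cells (2), 1 of duct epithelium (2) and 0 of undifferentiated spermatogonia (1), of which 4 were then higher (2). Of the 35 ratios, 30 moved out of their counting interval with plain totals, 10 with upper-quartile scaling and 0 with DESeq2 size factors; the change of factor itself is the cause. No paired analysis was possible because each age has 1 library, and for the same reason no library could be left out. Members under 100 counts in each library are known only to the width of their intervals, as for ITGB6 and ITGAD.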
